A study of Homo sapiens and Mus musculus with 17 samples.

Results

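Macrophages and other antigen-presenting cells of brown adipose tissue (BAT) can be followed in bulk RNA through genes that these cells express and brown adipocytes largely do not. Here 10 such marker genes, Adgre1, Csf1r, Cd68, Lyz2, C1qa, Cd74, H2-Aa, Itgax, Trem2 and Gpnmb, were read by gene name from a table of 55491 mouse genes, and all 10 were found. The series holds RNA-seq of 17 samples, of which 8 are BAT from C57BL/6J mice, 12 weeks old by the labels. There were 3 wild type (WT) samples, 3 of Sel1l flox/flox;Ucp1-Cre mice (Sel1L KO) and 2 of Hrd1 flox/flox;Ucp1-Cre mice (Hrd1 KO, deletion of Syvn1, the gene that encodes HRD1). Whether the WT mice carried floxed alleles is not given in the labels. The 9 HEK293T cultures of the series are human and were not used here.

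SEL1L and HRD1 form a complex of the endoplasmic reticulum that recognises misfolded proteins, attaches ubiquitin to them and passes them on for degradation. The deletion relied on Ucp1-Cre, a transgene made for brown adipocytes, and macrophages are not a cell type in which it is known to act. Tissue macrophages depend on signalling through the CSF1 receptor, take up dead cells and lipid, and can display peptides to T cells on MHC class II molecules. In fat, macrophages at dying or overloaded adipocytes are known to take on a lipid-associated state with TREM2 and GPNMB. Gene expression was given as FPKM, the fragments of a gene divided by its length and by the total of the library, which allows levels of different genes to be compared. In whole tissue, fewer cells of a type and less RNA per cell cannot be told apart.

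Several libraries stood apart. The depth was about 8900000 to 15200000 fragments per library, worked out from the spacing of FPKM values in genes with few fragments. Sel1L KO replicate 1 had the highest level of the 8 libraries for 6 of the 10 markers, and its summed FPKM of 10 interferon response genes was 646, against 64.5 to 155 in the other 7. Its Dio2, a thyroid hormone deiodinase of brown adipocytes, was 286 FPKM, against 4.69 to 41.6 in the others. Hrd1 KO replicate 1 had a summed FPKM of 269 for 5 skeletal muscle genes, against 2.45 to 55.5. The targeted genes were not lower than in WT in every library of their own knockout. Sel1l was 9.10, 12.9 and 10.3 FPKM in WT, 25.2, 8.17 and 8.38 in Sel1L KO, and 57.6 and 65.2 in Hrd1 KO, so that the libraries labelled Hrd1 KO were far above all others. Syvn1 was 5.37, 5.65 and 5.20 FPKM in WT, 118, 16.6 and 9.96 in Sel1L KO, and 14.1 and 13.8 in Hrd1 KO, above WT in every knockout library. FPKM of a whole gene covers exons outside the floxed part and cells without Cre, so these values do not check the deletion. They do not follow the labels, and Sel1L KO and Hrd1 KO stand throughout for the libraries labelled so. Defining genes of brown adipocytes were present in every library, with Ucp1 at 1138 to 3453 FPKM and Cidea at 2405 to 4105 FPKM.

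The whole table also moved between groups. The median log2 fold change over the 12473 genes tested was 0.42 in Hrd1 KO and 0.09 in Sel1L KO against WT. After the libraries were scaled by the median ratio over 14042 genes, these medians were -0.02 and 0.00. Values are therefore given as deposited, those after this scaling are named as scaled, and for the markers it is said where scaling changes the order of WT and knockouts.

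The macrophage surface receptors had low levels that were higher in the libraries of both knockouts. Adgre1 encodes F4/80, an adhesion receptor used to identify mouse macrophages (ENSMUSG00000004730, GRCm38 chromosome 17, 57358691 to 57483527). Adgre1 measured 0.84, 1.03 and 0.49 FPKM in WT, 1.83, 1.16 and 1.86 in Sel1L KO, and 1.66 and 1.09 in Hrd1 KO. All 5 knockout libraries thus lay above the 3 WT libraries as deposited, while after scaling Sel1L KO replicate 2 (1.12) and Hrd1 KO replicate 2 (0.94) lay below WT replicate 2 (1.14). Csf1r encodes the receptor for CSF1, on which most tissue macrophages depend (ENSMUSG00000024621, chromosome 18, 61100598 to 61132149). Csf1r was 2.01, 2.09 and 1.61 FPKM in WT, 2.24, 2.85 and 2.99 in Sel1L KO, and 4.06 and 2.83 in Hrd1 KO. The knockout libraries again lay above WT and overlapped each other, and the lowest of them was Sel1L KO replicate 1. Csf1r overlaps Hmgxb3 on the opposite strand, which was 2.95 to 5.12 FPKM, and without a stated strand of the libraries reads of the overlap cannot be assigned with certainty.

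The lysosomal markers differed in level and in size of the difference. Cd68 encodes a glycoprotein of macrophage lysosomes (ENSMUSG00000018774, chromosome 11, 69664213 to 69666153). Cd68 measured 1.95, 1.87 and 2.60 FPKM in WT, 4.44, 3.42 and 2.68 in Sel1L KO, and 3.73 and 3.45 in Hrd1 KO. A narrow gap, between WT replicate 3 and Sel1L KO replicate 3, separated the knockouts from WT, and after scaling these 2 libraries changed order (2.763 and 2.702). Lyz2 encodes lysozyme M, a bacteriolytic enzyme of myeloid cells (ENSMUSG00000069516, chromosome 10, 117277331 to 117282321). Lyz2 was 16.3, 16.4 and 12.3 FPKM in WT, 45.5, 32.5 and 37.8 in Sel1L KO, and 29.3 and 30.6 in Hrd1 KO. The lowest knockout library was thus well above the highest WT library, and the Hrd1 KO libraries lay below all Sel1L KO libraries. Group means were 15.0 ± 2.34 (SD, n = 3), 38.6 ± 6.51 (n = 3) and 30.0 ± 0.93 (n = 2), or 2.57 and 1.998 times the WT mean (2.43 and 1.46 times after scaling). Lyz1, a near-identical copy named after its values were seen, was 0.14 to 0.47 FPKM in WT and 0.70 to 2.15 in the knockouts, and reads that fit both copies are divided by estimate.

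C1qa encodes a chain of complement C1q, which tissue macrophages secrete (ENSMUSG00000036887, chromosome 4, 136895917 to 136898803). It was 17.4, 17.3 and 14.0 FPKM in WT, 71.7, 29.7 and 29.4 in Sel1L KO, and 23.0 and 24.6 in Hrd1 KO. The order of the groups was WT, Hrd1 KO and Sel1L KO with no overlap, and Sel1L KO replicate 1 was far above the rest. After scaling, Hrd1 KO replicate 1 (17.6) lay below WT replicates 1 and 2 (20.1 and 19.2).

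Cd74 and H2-Aa, genes of antigen presentation, had high levels among the 10. Cd74 encodes the invariant chain, which escorts MHC class II molecules through the cell (ENSMUSG00000024610, chromosome 18, 60803848 to 60812652). It was 39.4, 38.8 and 34.9 FPKM in WT, 145, 84.9 and 75.3 in Sel1L KO, and 93.1 and 80.8 in Hrd1 KO. H2-Aa encodes the alpha chain of the MHC class II molecule H2-A (ENSMUSG00000036594, chromosome 17, 34282744 to 34287823). H2-Aa was 20.3, 24.9 and 19.7 FPKM in WT, 87.2, 37.5 and 42.0 in Sel1L KO, and 41.5 and 37.1 in Hrd1 KO. For both genes every knockout library exceeded every WT library, before and after scaling. The mean of Cd74 was 2.701 times the WT mean in Sel1L KO and 2.31 times in Hrd1 KO, and that of H2-Aa was 2.57 and 1.82 times. After scaling these were 2.58 and 1.68 times for Cd74 and 2.48 and 1.325 times for H2-Aa. Itgax encodes CD11c, an integrin of dendritic cells and of some fat macrophages (ENSMUSG00000030789, chromosome 7, 128129547 to 128150657). It was 0.07, 0.02 and 0.03 FPKM in WT, 0.77, 0.31 and 0.14 in Sel1L KO, and 0.37 and 0.40 in Hrd1 KO. These levels rest on few fragments, about 6 over the 3 WT libraries, 51 over Sel1L KO and 33 over Hrd1 KO. Relative to the depth of the libraries they gave ratios to WT of 9.36 (exact 95% interval 4.02 to 26.7) and 9.30 (3.85 to 27.1), where the intervals cover counting error only and not the spread between libraries. Sel1L KO replicate 1 held about 29 of the 51 fragments, and without it the Sel1L KO ratio was 5.67 (2.23 to 17.1).

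Both markers of the lipid-associated state stayed under 1 FPKM in all 8 libraries. Trem2 encodes a lipid-sensing receptor (ENSMUSG00000023992, chromosome 17, 48346401 to 48354147). It was 0.59, 0.87 and 0.52 FPKM in WT, 0.43, 0.37 and 0.11 in Sel1L KO, and 0.58 and 0.11 in Hrd1 KO. Trem2 was the one marker whose mean was lower in both knockouts, on about 21, 8 and 6 fragments in WT, Sel1L KO and Hrd1 KO. Its depth-corrected ratios to WT were 0.42 (exact 95% interval 0.161 to 0.986) and 0.48 (0.159 to 1.24), and that of Sel1L KO without replicate 1 was 0.37 (0.108 to 1.003). As deposited, Hrd1 KO replicate 1 lay among the WT values, and after scaling all 5 knockout libraries (0.095 to 0.494) lay below the 3 WT libraries (0.553 to 0.966). Gpnmb encodes a glycoprotein of lysosomes (ENSMUSG00000029816, chromosome 6, 49036546 to 49070929). Gpnmb was 0.09, 0.63 and 0.34 FPKM in WT, 0.46, 0.62 and 0.28 in Sel1L KO, and 0.59 and 0.39 in Hrd1 KO, and the 3 groups overlapped. Its ratios to WT were 1.29 (0.857 to 1.94) in Sel1L KO and 1.37 (0.867 to 2.14) in Hrd1 KO. These intervals leave out the spread between libraries, which was wide in WT, with about 5, 32 and 10 fragments in the 3 libraries.

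**Figure D1:**
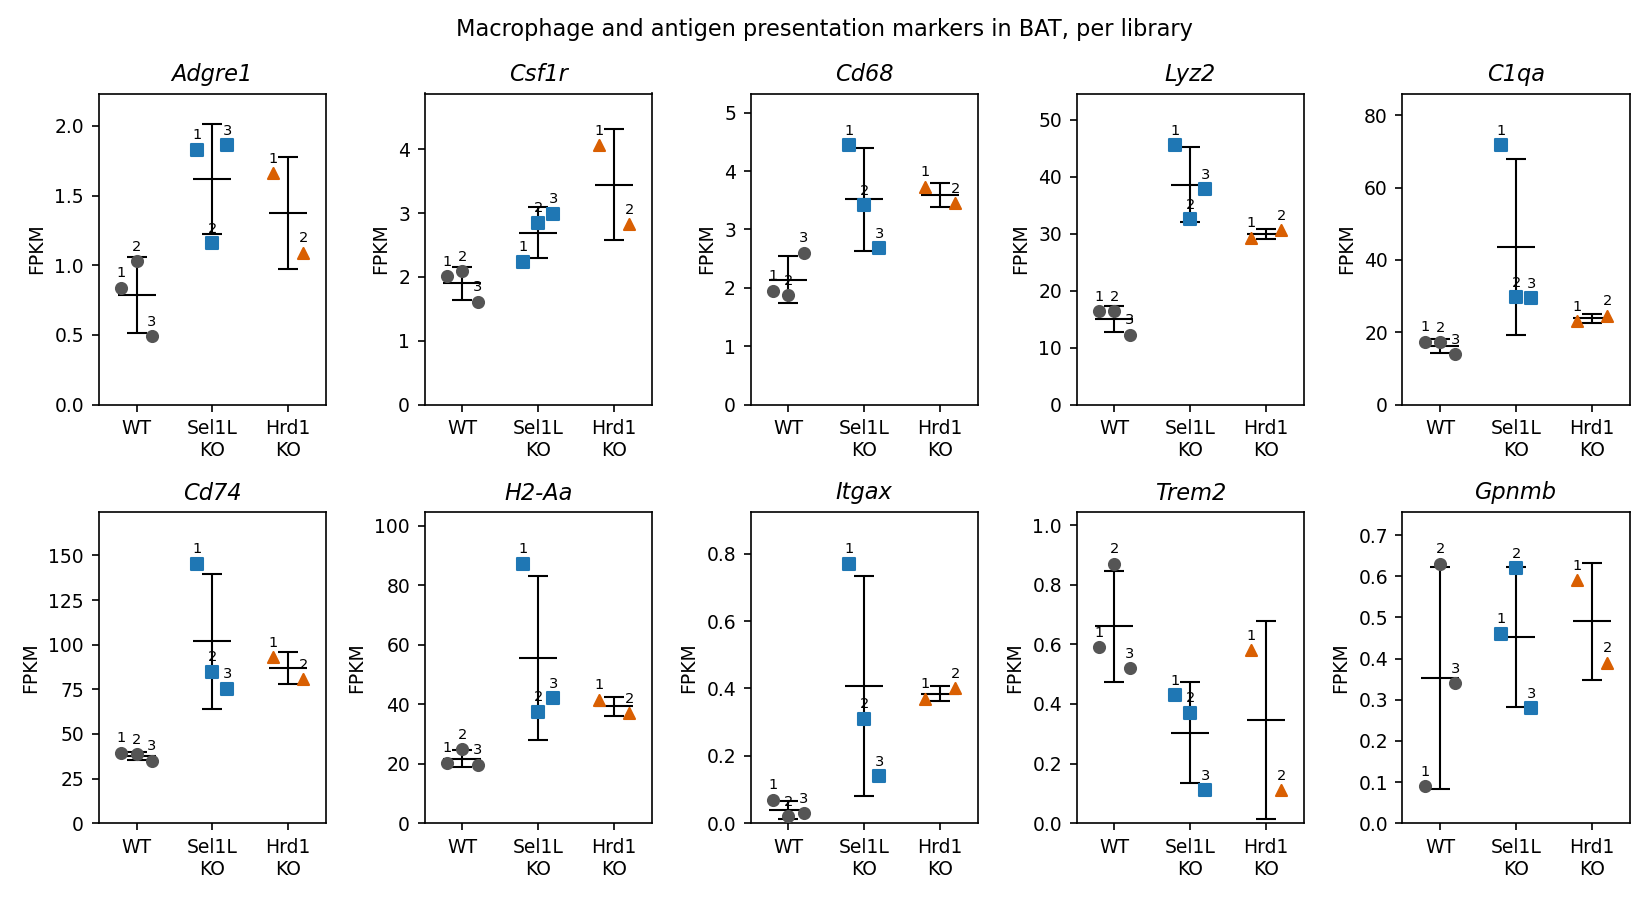
FPKM as deposited (y axis, from 0) of the 10 markers in each BAT library, by group (x axis), with the replicate number beside each point and the mean ± SD as bars (n = 3, 3 and 2). The knockout points lie above all WT points in 8 panels, and in those of Trem2 and Gpnmb they do not.

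All 5 knockout libraries lay above all 3 WT libraries for 8 of the 10 markers as deposited, the exceptions being Trem2 and Gpnmb. After scaling it held for 5 of the 10 (Csf1r, Lyz2, Cd74, H2-Aa and Itgax). With 3 against 3 libraries, the smallest two-sided p of an exact permutation test on a single gene is 0.1, so that differences were tested in limma across all genes. For this, 7 of the 10 markers passed the filter of 1 FPKM in at least 2 libraries. Itgax, Trem2 and Gpnmb did not. Of the 7, all knockout libraries lay above WT for all 7 as deposited and for 4 after scaling, against 15.0% and 7.78% of all genes tested. Since the knockout libraries alone can carry a gene past this filter, values over the 7 are a description. Adgre1 passed only through knockout libraries, as WT replicate 2 (1.03) was the only WT library to reach 1 FPKM. It stays in counts and medians over the 7, but markers past an unadjusted p are named without it, and no p-value is given for it.

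In Sel1L KO, the question was whether these markers differ from WT when the adaptor SEL1L is deleted in brown adipocytes. None of the 7 markers tested passed limma's adjusted p of 0.01, a threshold that 0.104% of all genes passed in either direction. At an adjusted p of 0.05, Lyz2 and Cd74 were higher in Sel1L KO, against 0.689% of all genes. Lyz2, Cd74, H2-Aa, C1qa and Cd68 were higher at an unadjusted p of 0.05 and Csf1r was not, against 12.7% of all genes. The log2 fold change was 1.36 for Lyz2 (SE 0.18, adjusted p = 0.0235) and 1.37 for Cd74 (SE 0.24, adjusted p = 0.0471). C1qa was 1.296 (SE 0.33, adjusted p = 0.106) and H2-Aa 1.26 (SE 0.30, adjusted p = 0.0928). Cd68 was 0.68 (SE 0.27) and Csf1r 0.48 (SE 0.26), with adjusted p of 0.241 and 0.392. Adgre1 was 0.98 (SE 0.40). The median of the 7 was 1.26, and 1.16 after scaling, beside 0.09 and 0.00 over all genes. After scaling, none of the 7 passed an adjusted p of 0.05, which 0.233% of all genes did in this direction, and 4 passed an unadjusted p of 0.05 (Lyz2, Cd74, H2-Aa and C1qa), against 8.41%. The adjusted p of Lyz2 ran from 0.0125 to 0.182 over 17 alternatives, being under 0.05 in 6, and that of Cd74 from 0.00778 to 0.199, under 0.05 in 4. Both were above 0.05 with only the 2 groups compared (0.0529 and 0.0764), with the replicate block (0.0813 and 0.0816) and without any 1 of the WT libraries (0.0828 to 0.199).

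Without Sel1L KO replicate 1, the median over the 7 markers in Sel1L KO was 0.88, and 0.70 with scaling too. The log2 fold changes of C1qa, H2-Aa and Cd74 were then 0.87, 0.88 and 1.08, while that of Lyz2 was 1.23. In this fit Cd74 passed the adjusted p of 0.01 (adjusted p = 0.00778), as did 0.489% of all genes, and Lyz2 had an adjusted p of 0.0125. In the plot of the markers by library, replicates 2 and 3 of Sel1L KO still lie above WT in the panels of all 4.

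In Hrd1 KO, the corresponding question was asked for deletion of the ubiquitin ligase. None of the 7 markers passed limma's adjusted p of 0.01, which 0.369% of all genes passed in either direction. Lyz2 and Cd74 were again higher at an adjusted p of 0.05, against 4.38% of all genes. Lyz2, Cd74, H2-Aa, Csf1r and Cd68 were higher at an unadjusted p of 0.05 and C1qa was not, against 25.4% of all genes. The log2 fold change was 1.202 for Cd74 (SE 0.27, adjusted p = 0.0456) and 1.01 for Lyz2 (SE 0.21, adjusted p = 0.0380). H2-Aa was 0.86 (SE 0.34, adjusted p = 0.147), Csf1r 0.81 (SE 0.29, adjusted p = 0.126) and Adgre1 0.76 (SE 0.45). Cd68 was 0.73 (SE 0.30) and C1qa 0.56 (SE 0.37), with adjusted p of 0.157 and 0.343. The median of the 7 was 0.81, beside 0.42 over all genes.

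Scaling lowered the values in Hrd1 KO more than those in Sel1L KO. The median of the 7 in Hrd1 KO was 0.37 after scaling, beside -0.02 over all genes, Cd74 being highest at 0.75 (SE 0.32) and C1qa lowest at 0.11 (SE 0.43). None passed an adjusted p of 0.05, which 0.433% of all genes did in this direction, and Cd74 alone had an unadjusted p under 0.05, against 7.36% of all genes. The fit without Sel1L KO replicate 1 left the Hrd1 KO fold changes as deposited the same. In it Cd74 (adjusted p = 0.00167), Lyz2 (adjusted p = 0.00697) and H2-Aa (adjusted p = 0.00803) passed the adjusted p of 0.01, as did 6.09% of all genes. With scaling too, none of them passed, at adjusted p of 0.0192, 0.117 and 0.135. Over 17 alternatives Cd74 was under an adjusted p of 0.05 in 6 (range 0.00167 to 0.409) and Lyz2 in 4 (0.00697 to 0.513), and without any 1 of the WT or Hrd1 KO libraries both had an adjusted p of 0.1002 to 0.2302.

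**Figure D2:**
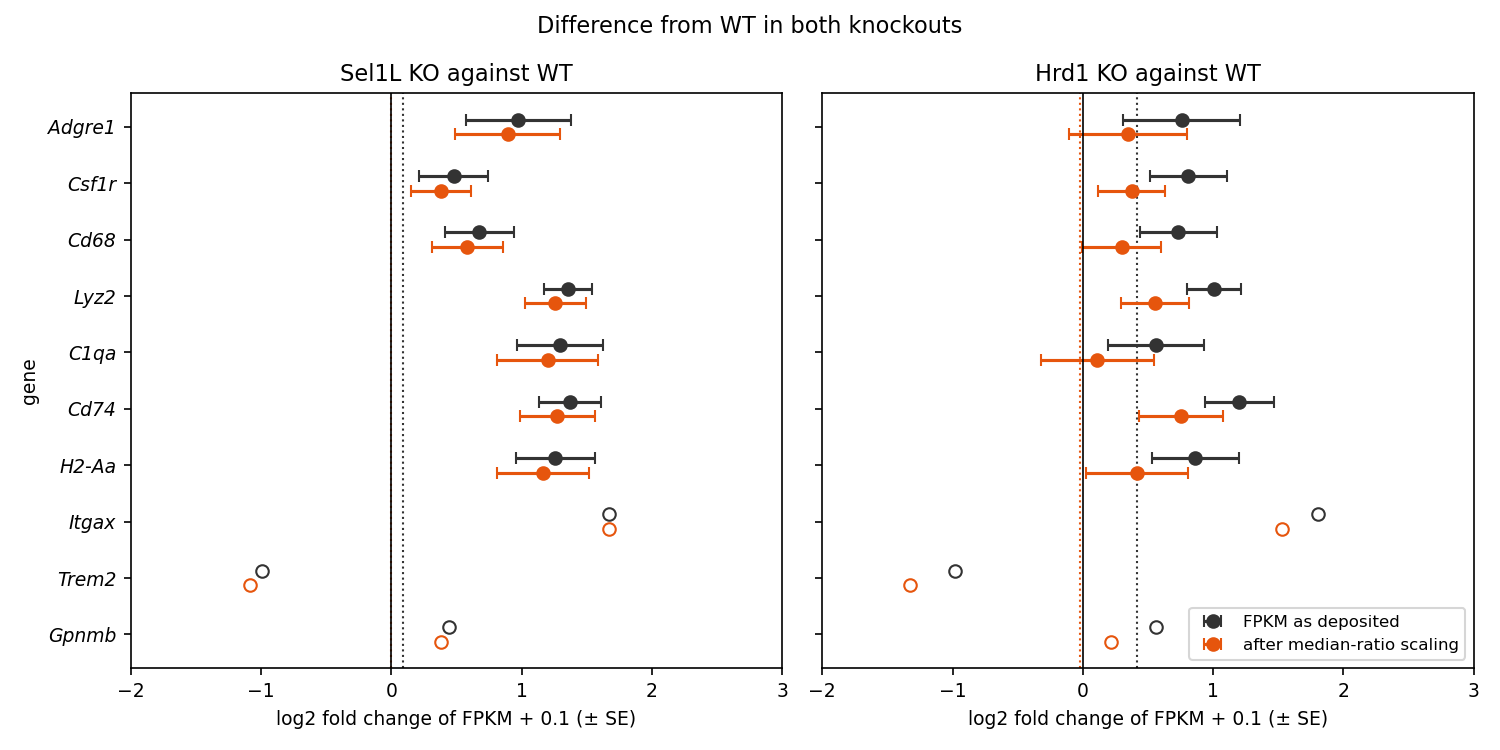
Log2 fold change of FPKM + 0.1 (x axis) of the 10 markers (y axis) in Sel1L KO and Hrd1 KO against WT, as deposited and after median-ratio scaling. Filled points carry the SE from limma, open points are markers under the filter with no test, and dotted lines are the medians over all genes tested, 0.09 and 0.42 as deposited. Scaling shifts the points of Hrd1 KO further left than those of Sel1L KO.

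Both comparisons share the WT libraries, so that the knockouts were also compared directly. As deposited, none of the 7 markers passed limma's adjusted p of 0.01 between Hrd1 KO and Sel1L KO, a threshold that 0.0401% of all genes passed. None passed an unadjusted p of 0.05 in either direction, against 15.5% of all genes higher and 1.18% lower in Hrd1 KO. The largest difference was that of C1qa, at -0.74 in Hrd1 KO relative to Sel1L KO (SE 0.37, adjusted p = 0.342). Lyz2 was at -0.35 (SE 0.21) and Csf1r at 0.33 (SE 0.29). After scaling, C1qa (-1.09, SE 0.43) and Lyz2 (-0.70, SE 0.26) were lower in Hrd1 KO at an unadjusted p of 0.05, as were 5.90% of all genes, with adjusted p of 0.456 and 0.443. Without Sel1L KO replicate 1, C1qa was at -0.31 as deposited.

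Ratios of 2 markers within a library do not depend on how the libraries are scaled. The ratio of Cd74 to Csf1r was 19.6, 18.6 and 21.7 in WT, 64.9, 29.8 and 25.2 in Sel1L KO, and 22.9 and 28.6 in Hrd1 KO. Every knockout library was thus above WT for this ratio, Hrd1 KO replicate 1 by little. The ratio of H2-Aa to Csf1r was 10.1 to 12.2 in WT, 13.15 to 38.93 in Sel1L KO, and 10.22 and 13.1 in Hrd1 KO. That of Lyz2 to Csf1r was 7.64 to 8.13 in WT, 11.41 to 20.3 in Sel1L KO, and 7.22 and 10.82 in Hrd1 KO. Hrd1 KO replicate 1 thus lay within WT for H2-Aa and below WT for Lyz2. The ratio of C1qa to Csf1r was 8.64, 8.26 and 8.66 in WT, 32.0, 10.4 and 9.83 in Sel1L KO, and 5.67 and 8.71 in Hrd1 KO, so that Sel1L KO was above WT and Hrd1 KO on both sides of it. The ratio of Cd74 to H2-Aa, partners of the same pathway, stayed between 1.56 and 2.27 in all 8 libraries, and that of C1qa to H2-Aa between 0.55 and 0.85.

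Across the 8 libraries, Lyz2, Cd74, H2-Aa, Itgax and C1qa had similar profiles, with Pearson's r of log2 values of 0.84 to 0.96 in their 10 pairs. Some pairs with other markers also reached this range, such as Cd68 with Itgax (0.93) and Adgre1 with Lyz2 (0.891). Adgre1 with Cd68 was at 0.53. These 5 are thus not a set apart. Csf1r had r of 0.29 to 0.73 with the other 7 of the 8 markers that lay above WT. Trem2 had r of -0.57 to -0.30 with those 8, and Gpnmb of 0.25 to 0.45. These values describe 8 points that share group differences and library scale. The 8 markers were grouped by lying above WT in the same libraries, so the lower r of Trem2 and Gpnmb is not independent of that grouping. The genes whose log2 level was most like the mean profile of the 10 markers were H2-Q7 (r = 0.994), Srsf3 (r = 0.991) and Ppp1r11 (r = 0.987), followed by Nsf, Psat1, Ifi44, H2-Q4, Lat, Ripk1 and Pyroxd1 (r = 0.980 to 0.985). H2-Q7, an MHC class I gene, was 5.11, 9.04 and 5.62 FPKM in WT, 48.3, 20.7 and 17.8 in Sel1L KO, and 29.7 and 19.0 in Hrd1 KO. H2-Q7 and H2-Q4 belong to a family of close copies, among which reads are divided by estimate.

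Further genes of these cells were taken from 16 lists of 137 genes, of which 103 passed the filter. None passed an adjusted p of 0.01 in any of the 3 comparisons. Among 20 genes of resident and other macrophages, 13 lay above WT in all 5 knockout libraries as deposited and 6 after scaling, and none lay below. Of the 17 of them that passed the filter it was 10 and 5, beside 15.0% and 7.78% of all genes tested. Some of the 17 passed only through knockout libraries, which raises such a count. C1qb and C1qc, the neighbours of C1qa that encode the other C1q chains, were 7.04 to 12.1 and 7.10 to 9.28 FPKM in WT, and 16.3 to 45.4 and 14.6 to 31.6 in the knockouts. After scaling, C1qb of Hrd1 KO replicate 1 (12.5) lay below WT replicate 1 (14.0). Tyrobp, the signalling partner of TREM2 and other receptors, was 5.06, 4.29 and 4.73 FPKM in WT, 16.5, 7.49 and 11.8 in Sel1L KO, and 12.0 and 11.9 in Hrd1 KO, with log2 fold changes of 1.26 (SE 0.28, adjusted p = 0.0756) and 1.33 (SE 0.31, adjusted p = 0.0502). Lyve1, a hyaluronan receptor of perivascular macrophages and lymphatic vessels, was 0.26 to 0.28 FPKM in WT, 3.39, 1.21 and 0.89 in Sel1L KO, and 0.35 and 1.39 in Hrd1 KO. Fcgr1, the high-affinity IgG receptor, was 0.09 to 0.23 FPKM in WT, 0.77, 0.35 and 0.26 in Sel1L KO, and 1.14 and 1.13 in Hrd1 KO. Both passed the filter only through knockout libraries, and no test is given for them. Other macrophage genes did not have this order. Cd163, a haemoglobin scavenger receptor, was 2.17 to 2.49 FPKM in WT and 2.05 to 2.92 in the knockouts.

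Of the 8 further MHC class II genes, every knockout library lay above WT for 4 as deposited and 3 after scaling. These 4 are the ones that passed the filter, and 15.0% and 7.78% of all genes tested had this order. Of the others, H2-Ob was 0.23 to 0.61 FPKM in WT and 0.07 to 0.54 in the knockouts, and Ciita, the regulator of MHC class II transcription, was 0.20 to 0.28 in WT, 0.12 to 0.37 in Sel1L KO, and 0.58 and 0.39 in Hrd1 KO. H2-DMb2 and H2-Oa, at most 0.65 and 0.21 FPKM in any library, also overlapped WT. H2-Ab1, the beta chain that pairs with H2-Aa, was 33.7, 33.2 and 25.8 FPKM in WT, 141, 65.9 and 51.6 in Sel1L KO, and 61.6 and 59.9 in Hrd1 KO. H2-Eb1, another beta chain, was 19.6 to 29.6 FPKM in WT and 42.4 to 89.6 in the knockouts. H2-DMb1, a chain of the peptide exchanger H2-DM, had the largest log2 difference, 1.71 in Sel1L KO (SE 0.40, adjusted p = 0.0883) and 1.22 in Hrd1 KO (SE 0.45, adjusted p = 0.130). The median over the 4 was 1.36 in Sel1L KO and 1.05 in Hrd1 KO as deposited, and 1.27 and 0.61 after scaling.

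For the list of the lipid-associated state the median lay close to that of all genes. Of its 16 genes, 3 lay above WT in all 5 knockout libraries and 1 below as deposited (1 and 3 after scaling). The 3 were among the 11 tested, beside 15.0% of all genes tested, and the median over the 11 tested was 0.09 in Sel1L KO and 0.39 in Hrd1 KO, beside 0.09 and 0.42 over all genes. Lgals3, encoding galectin 3, was 1.47, 2.57 and 1.03 FPKM in WT, 14.4, 3.63 and 4.59 in Sel1L KO, and 3.87 and 4.41 in Hrd1 KO. Ctsb, a lysosomal protease, was the gene below, at 277 to 344 FPKM in WT and 108 to 217 in the knockouts. Spp1 was at most 0.98 FPKM in any library, and Cd5l and Dcstamp were listed at 0 in all 8. Apoe and Plin2, the most abundant of the list at means of 2024 and 494 FPKM, are also genes of adipose tissue itself.

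**Figure D3:**
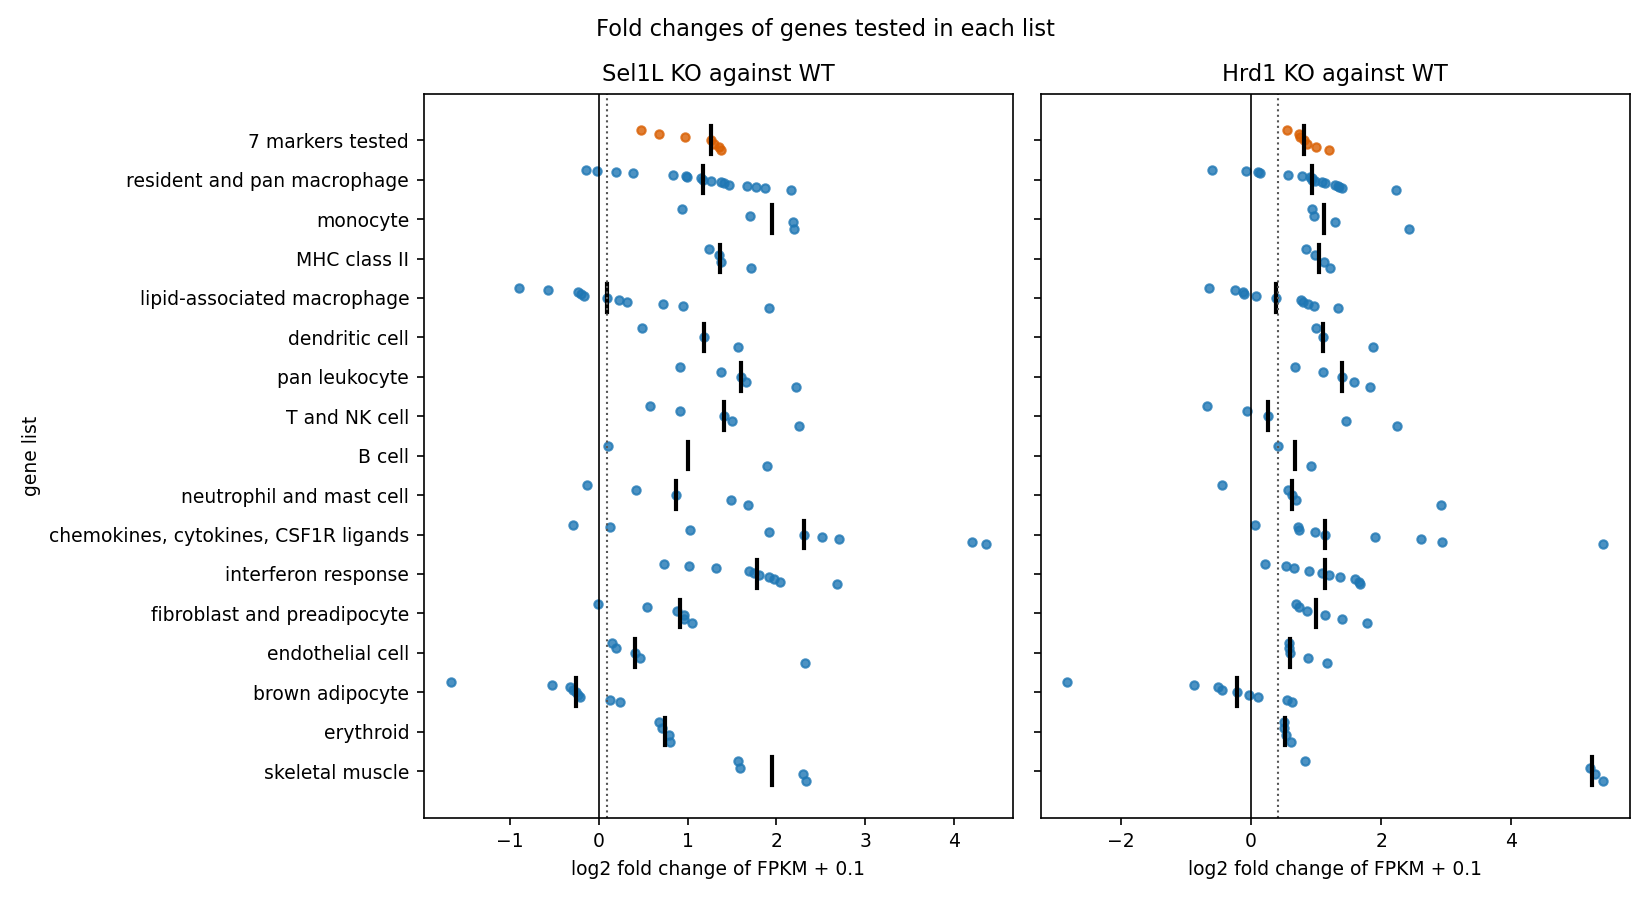
Log2 fold change of FPKM + 0.1 (x axis) as deposited in Sel1L KO and Hrd1 KO against WT for each gene tested, 1 point a gene, by gene list (y axis), with black bars at the list medians and a dotted line at the median over all genes. The 7 markers tested and the MHC class II list lie to the right of the dotted line in both comparisons, and the medians of the lipid-associated list lie on or near it. Medians of most other lists also lie to the right in Sel1L KO and Hrd1 KO, such as pan leukocyte (1.61 and 1.41), interferon response (1.78 and 1.15) and fibroblast and preadipocyte (0.92 and 1.00). The brown adipocyte median lies to the left in both, and that of T and NK cells in Hrd1 KO.

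Cd52, a surface glycoprotein of leukocytes, was 4.11, 3.40 and 2.73 FPKM in WT, 22.8, 13.6 and 13.3 in Sel1L KO, and 12.5 and 12.0 in Hrd1 KO. Its log2 fold change was 2.22 in Sel1L KO (SE 0.26, adjusted p = 0.0146) and 1.84 in Hrd1 KO (SE 0.29, adjusted p = 0.0173). It was the one list gene besides the markers past an adjusted p of 0.05 in Sel1L KO. That is 0.971% of the 103 list genes tested, against 0.689% of all genes higher at that level, a share near the background. It also passed after scaling (adjusted p = 0.0417), as did 0.233% of all genes in this direction. In Hrd1 KO, 5 of the 103 list genes tested passed that level (Cd52, Csf1, Vat1, Col1a1 and Col3a1), or 4.85% against 4.38% of all genes, a share near the background, and none did after scaling. Ptprc, encoding CD45, was 0.52 to 0.78 FPKM in WT and 1.13 to 3.35 in the knockouts. The monocyte genes had low levels, Ly6c2 being 0.26 to 0.44 FPKM in WT and 1.13 to 3.41 in the knockouts. All 8 dendritic cell genes lay above WT in both Hrd1 KO libraries and 3 of them did in all Sel1L KO libraries. Of the 3 that passed the filter it was 3 and 0, beside 51.1% and 17.7% of all genes tested with this order (21.1% and 12.8% after scaling). Among the 8, Clec10a, a lectin also found on macrophages, was 0.45 to 1.65 FPKM in WT and 1.47 to 7.71 in the knockouts. No gene of the B cell, T and NK cell or neutrophil and mast cell lists lay above WT in all 5 knockout libraries. Only 2, 5 and 5 of their genes passed the filter, beside 15.0% of all genes tested with this order as deposited. These are too few to set these lists apart from the background. Igkc, the immunoglobulin light chain of plasma and B cells, was 5.57 to 29.2 FPKM in WT and 12.4 to 93.3 in the knockouts, and Nkg7, a granule protein of cytotoxic lymphocytes, was 0.00 to 0.58 and 0.44 to 3.79. Kit, the stem cell factor receptor of mast cells, was 0.56 to 4.69 FPKM in WT, 1.07 to 5.75 in Sel1L KO, and 15.0 and 11.3 in Hrd1 KO, and S100a9 of neutrophils was 0.60 to 4.46 FPKM in WT and 1.15 to 5.60 in the knockouts. Ms4a1, which encodes CD20 of B cells, was 0.00 to 0.10 FPKM, and Cd3e of T cells 0.00 to 1.44, with a WT library and a Sel1L KO library listed at 0. MHC class II genes are also expressed by B cells and dendritic cells, and the part of each cell type in their levels was not tested.

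Csf1, the ligand of the CSF1 receptor, was 1.40, 0.94 and 1.52 FPKM in WT, 2.01, 3.47 and 2.76 in Sel1L KO, and 5.99 and 4.20 in Hrd1 KO. Every knockout library lay above WT, and Hrd1 KO above Sel1L KO. Il34, the other ligand of that receptor, was 3.01 to 4.91 FPKM in WT and 2.66 to 5.75 in the knockouts. The chemokine Ccl6, made by myeloid cells, was 2.51, 3.07 and 1.49 FPKM in WT, 36.5, 9.45 and 6.94 in Sel1L KO, and 3.85 and 6.73 in Hrd1 KO. Gdf15, a stress-induced cytokine, was listed at 0 in the 3 WT libraries, at 14.9, 1.06 and 0.40 FPKM in Sel1L KO, and at 2.37 and 7.18 in Hrd1 KO.

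Sums over whole lists, as deposited unless named as scaled, were set beside those of the markers. The summed FPKM of the 10 markers was 86.4 to 104 in WT, 360, 193 and 193 in Sel1L KO, and 198 and 181 in Hrd1 KO. Cd74, H2-Aa, C1qa and Lyz2 carried most of this sum, as no other marker was above 4.44 FPKM in any library. The sum therefore says little about the other markers. The sum of 6 fibroblast and preadipocyte genes was 76.3 to 108 in WT and 152 to 187 in the knockouts. Of these 6 genes, 4 lay above WT in every knockout library, beside 15.0% of all genes tested. Their Col3a1, a fibrillar collagen, was 13.1 to 15.6 FPKM in WT and 25.6 to 47.0 in the knockouts. The sum of 5 endothelial genes was 70.0 to 97.8 in WT and 124 to 217 in the knockouts, Cldn5 alone being 152 of the 217 in Sel1L KO replicate 1. Without Cldn5, that library (65.1) lay within the WT range of 62.8 to 85.3 and the other knockout libraries were 104 to 135. The sum of 9 brown adipocyte genes was 8423 to 9636 in WT and 6474 to 8760 in the knockouts. The 4 globin genes summed to 813 to 1334 in WT and 1285 to 2605 in the knockouts, with overlap between the groups. The interferon response genes, some of which act with antigen presentation, summed to 64.5 to 75.0 in WT and 87.6 to 646 in the knockouts. Leaving aside Sel1L KO replicate 1, the summed markers of the other 4 knockout libraries were 181 to 198, all above WT. After scaling the sums were 91.8 to 115 in WT, 413, 186 and 194 in Sel1L KO, and 151 and 156 in Hrd1 KO, so that Hrd1 KO lay below Sel1L KO. The scaled sums of the endothelial genes were 80.9 to 104 in WT and 107 to 249 in the knockouts, and those of the fibroblast genes 88.2 to 119 and 131 to 178. Without Cldn5 the scaled endothelial sums were 72.6 to 90.6 in WT, 74.7, 104 and 118 in Sel1L KO, and 103 and 89.5 in Hrd1 KO. The part of these other cell types, and of skeletal muscle in Hrd1 KO replicate 1, in the levels of the markers was not tested.

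**Figure D4:**
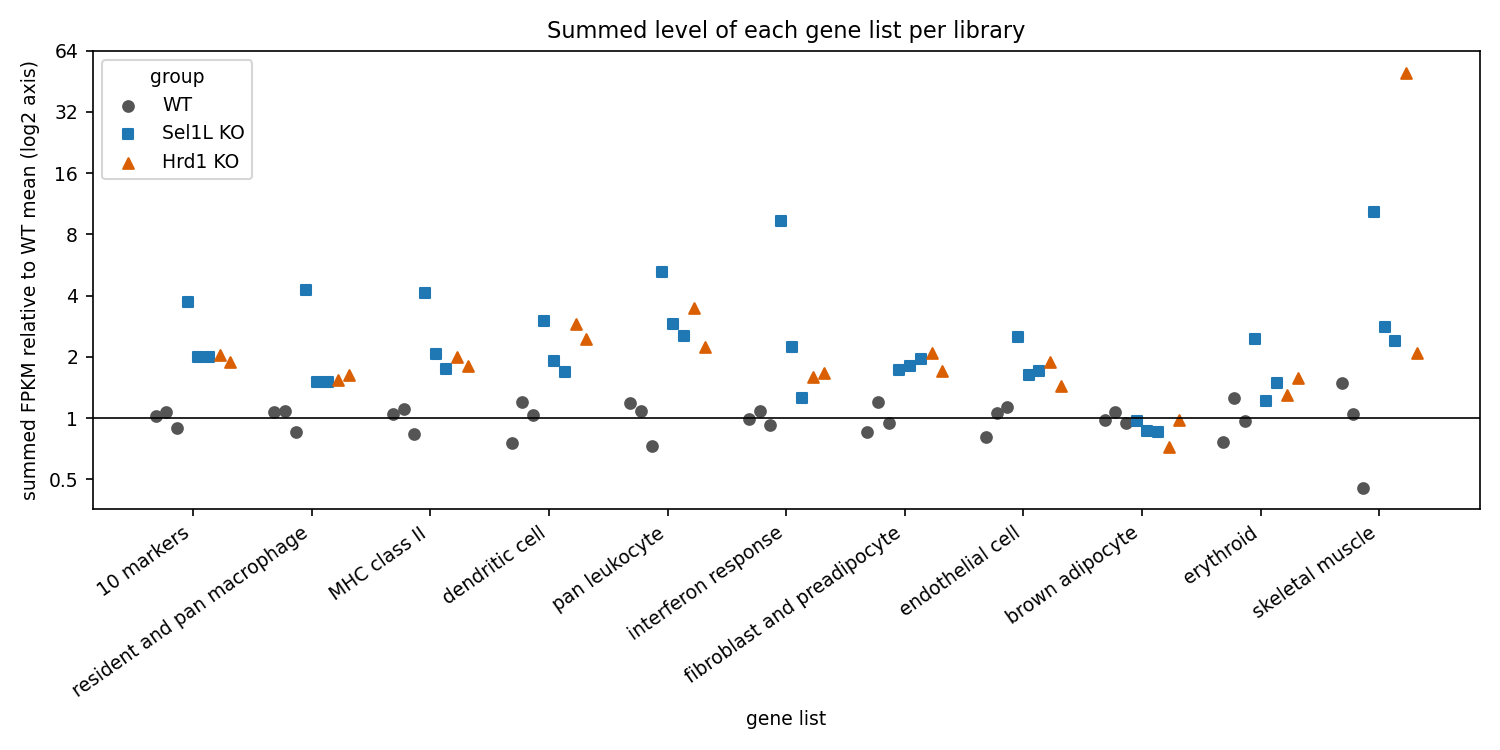
Summed FPKM of each gene list (x axis) in each BAT library relative to the mean of the 3 WT libraries (y axis, log2 scale), with circles for WT, squares for Sel1L KO and triangles for Hrd1 KO in the order of replicates. The summed markers of all 5 knockout libraries lie above WT, Sel1L KO replicate 1 highest, while the brown adipocyte sums lie near or below 1 and the skeletal muscle sum of Hrd1 KO replicate 1 is far above all others. Cd74, H2-Aa, C1qa and Lyz2 carry most of the summed markers.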

How the data were processed

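The 8 BAT samples were sequenced as polyA-enriched, paired-end RNA libraries. By the study's methods, the authors mapped reads with STAR 2.7.8a to GRCm38 and estimated gene abundance with RSEM 1.3.3, and the deposited values are the resulting FPKM per gene and library, rounded to 2 decimals. FPKM are not counts, so the authors' DESeq2 test on estimated counts was not repeated, and RSEM divides reads that fit several genes by estimate.

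Groups were taken from the labels, and all 8 value columns were used. The labels number the replicates of a genotype (n = 3, 3 and 2) without saying that each is a separate mouse, so p-values measure the spread between these samples. limma 3.58.1 (R 4.3.3) was run with a variance trend on log2(FPKM + 0.1), which understates the change of low genes, with the 3 groups in 1 model, for 12473 genes with at least 1 FPKM in at least 2 libraries. Benjamini-Hochberg adjustment ran over these genes, with a threshold of 0.01 after the study's threshold for BAT. Median-ratio scaling used 14042 genes above 0 in all libraries. Fit and depth estimate were tested on simulated data. Fragments of a gene were computed from its FPKM, transcript length and library total with a fragment length of 310 bases, so they are estimates. Depth limits precision to a few fragments for Itgax and Trem2. Positions are from GENCODE M21 (GRCm38), which held 55227 of the 55491 gene identifiers. Python 3.11.15, pandas 2.3.3 and matplotlib 3.10.9 were used.

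The markers, the gene lists and the tests were chosen with earlier results of these data known. Named were the 10 markers, Sel1l and Syvn1, the 10 genes most like the mean marker profile and, from each list, genes called, the 2 with the highest mean FPKM and the one with the largest log2 fold change against WT in each knockout. Not all of these are given values, and 1 is not reported here. Other genes named (C1qc, Tyrobp, Cd163, Ctsb, Spp1, Cd5l, Dcstamp, Ptprc, Ms4a1, Cd3e, Csf1, Il34, Vat1, H2-Ob, Ciita, H2-DMb2, H2-Oa, Lyz1 and Hmgxb3) were chosen after their values were seen. Alternatives were scaling, pseudocounts of 0.01 and 1, no filter, a replicate block, 2-group models, an adjusted p of 0.05 and leaving out each library.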

Additional observations from a re-analysis of the deposited data

How the results depend on the processing

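Each comparison had 155 alternative values of single markers. Of these, 146 in Hrd1 KO against WT, 152 in Sel1L KO against WT and 142 between the knockouts were unchanged. Unchanged means the same direction and side of an adjusted p of 0.01 or, for markers under the filter, a shift within the spread between replicates. No marker passed that threshold in the main fit, so one that stayed above it counts as unchanged. These counts therefore do not show that the adjusted p of a marker was stable. The number of genes called at an adjusted p of 0.01 (main counts of 46 and 13 against WT in Hrd1 KO and Sel1L KO, and 5 between the knockouts) depended strongly on the setting, and the cause was not tested. In Hrd1 KO against WT it was 583 at an adjusted p of 0.05 (2 markers), 5 with median-ratio scaling, 18 with quantile normalization, 213 with only the 2 groups compared (1 marker, Cd74), 163 with scaling and without Sel1L KO replicate 1, and 6 with scaling and the replicate block. In Sel1L KO against WT it was 110 at an adjusted p of 0.05 (2 markers), 26 with scaling and without Sel1L KO replicate 1, and 1 with scaling, quantile normalization, no filter, only the 2 groups compared, or scaling and the replicate block. Between the knockouts it was 8 with a pseudocount of 1, 14 with no filter and 0 with only the 2 groups compared. Leaving out 1 library gave 1 to 759 genes for Hrd1 KO, 1 to 61 for Sel1L KO and 1 to 8 between the knockouts, each highest without Sel1L KO replicate 1, with 0 to 3, 0 to 1 and 0 markers. Without a Hrd1 KO library, the remaining one is assumed to vary like the other groups. The markers' median log2 fold change was then 0.68 to 0.97 in Hrd1 KO, 0.88 to 1.47 in Sel1L KO and -0.43 to -0.02 between the knockouts. In Hrd1 KO the median was 0.37 with scaling, 0.24 with quantile normalization, 0.37 with scaling and without Sel1L KO replicate 1, and 0.28 with scaling and the block; in Sel1L KO it was 0.70 with scaling and without replicate 1; between the knockouts it was -0.55 with scaling, -0.54 with quantile normalization and -0.67 with scaling and the block.

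The direction reversed in these cases. C1qa in Hrd1 KO against WT was -0.073 with scaling and the replicate block. Between the knockouts, Cd68 and Csf1r were -0.29 and -0.0099 with scaling, -0.35 and -0.10 with quantile normalization, -0.033 and -0.061 with scaling and without Sel1L KO replicate 1, and -0.33 and -0.050 with scaling and the block. With 1 library left out, Cd74 ran from -0.36 to 0.12 (without Sel1L KO replicate 1), Cd68 from -0.12 (without Sel1L KO replicate 3) to 0.24, and Adgre1 from -0.50 to 0.065 (without Hrd1 KO replicate 2). Of the markers under the filter, Gpnmb in Sel1L KO against WT was -0.083 without WT replicate 1. Between the knockouts, the values otherwise being 0.14, 0.015 and 0.12, Itgax, Trem2 and Gpnmb were -0.14, -0.24 and -0.17 with scaling, and Trem2 was -0.030 at a pseudocount of 0.01. They were -0.30, -0.40 and -0.13 without Sel1L KO replicate 3, and without Hrd1 KO replicate 1 Trem2 and Gpnmb were -0.83 and -0.13. The log2 fold change of Itgax ran from 0.41 at a pseudocount of 1 to 3.11 at 0.01 in Hrd1 KO, and from 0.41 to 2.87 in Sel1L KO. That of Trem2 in Hrd1 KO was -1.83 without replicate 1 and -0.13 without replicate 2.

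Replicates share numbers across groups, but same-numbered libraries did not deviate together (correlations of -0.06 to 0.08 in 7 pairs, against -0.09 to 0.06 in 14 other pairs). The deviations are from the mean of each small group and so depend on each other. This check therefore cannot exclude that same-numbered samples share more than a number. With the replicate block, 5, 1 and 4 genes were called in Hrd1 KO, in Sel1L KO and between the knockouts, and no marker.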
